A study of Homo sapiens with 4 samples.

Results

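The genes described here are 10 human genes whose products edit or destroy foreign and self nucleic acid: the 7 cytidine deaminase genes APOBEC3A, APOBEC3B, APOBEC3C, APOBEC3D, APOBEC3F, APOBEC3G and APOBEC3H, the RNA deaminase gene ADAR, the deoxynucleotide hydrolase gene SAMHD1 and the DNA exonuclease gene TREX1. They were picked by name, and each matched 1 identifier among the 58735 of the count table through GENCODE release 29. RNA-seq read counts were available for A549, an established human lung adenocarcinoma line, in 2 UHRF1 KO libraries and 2 control libraries. The UHRF1 KO cells carried a guide against UHRF1, the control cells a non-targeting guide, and both were given by the lentiviral vector lentiCRISPRv2-hygro with hygromycin selection. UHRF1 recognises DNA methylated on a single strand and recruits the methyltransferase DNMT1 after replication, and the comparison asks which transcripts change when it is targeted. The labels do not state if each cell population was a pool or 1 clone, how long after transduction RNA was taken, or if replicates were cultured apart, so p-values measure only the spread between these libraries.

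APOBEC3 enzymes turn cytosine into uracil in single-stranded DNA, which damages retroviral and retroelement copies, and APOBEC3B and APOBEC3A are known as sources of mutation in tumours. ADAR turns adenosine into inosine in double-stranded RNA and thereby keeps the cell's own RNA from being read as viral by the sensor MDA5. SAMHD1 starves reverse transcription by breaking down deoxynucleotides, and TREX1 degrades stray DNA before the sensor cGAS meets it. Several of these genes are known interferon targets, and the APOBEC3 genes lie side by side on chromosome 22 as products of repeated duplication.

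UHRF1 itself had 811 and 1000 counts in UHRF1 KO and 1740 and 1834 in control, or 39.6 ± 0.79 CPM against 98.1 ± 0.90 CPM (CPM, reads scaled to a common library total after TMM normalization; SD, n = 2 each). Its log2 fold change was -1.31 (SE 0.055, edgeR adjusted p = 3.92e-20), and a transcript level does not measure loss of the protein. Library totals ran from 18604598 to 23977168 counts.

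In UHRF1 KO the APOBEC3 genes that A549 cells expressed most were lower. APOBEC3G, nearly absent from the control libraries, was higher at a low level, and APOBEC3H, too low to test, had 14 counts over both UHRF1 KO libraries and 1 over both controls. APOBEC3B was 2.47-fold lower, APOBEC3C 1.64-fold lower and APOBEC3F 1.46-fold lower, and the APOBEC3F call was lost in some alternative fits. ADAR, well expressed, and SAMHD1, far lower per length, did not pass the test and had intervals that span no change. The sign and call for ADAR depended on the scaling. TREX1 was listed at 0 counts in all 4 libraries, in a gene model that lies wholly inside the exons of a neighbour. Of the 10 genes 6 passed the filter on low counts, and of these 3 were lower, 1 was higher and 2 were not called. The background is high: edgeR's quasi-likelihood test with Benjamini-Hochberg adjustment at 0.05 called 62.0% of the 17030 genes tested, 30.1% lower and 32.0% higher. Libraries of the 2 groups did not overlap in CPM for 5 of the 6. In 4 of them both UHRF1 KO values were lower (38.4% of all genes tested) and in 1 both were higher (41.5%). APOBEC3G passed the filter only through the UHRF1 KO libraries. The median log2 fold change was -0.29 over the 6 tested genes and 0.02 over all genes tested.

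Promoter sequences from the RefSeq promoter table (GRCh38.p14) are shown because UHRF1 acts at CG dinucleotides and the windows differ in how many they carry. The table holds 6 windows for 4 of the 10 genes: APOBEC3H, ADAR with 3 starts, SAMHD1 and TREX1. Of these, 4 are printed, leaving out TREX1, whose counts are all 0, and an ADAR window that overlaps the outer one. APOBEC3A, APOBEC3B, APOBEC3C, APOBEC3D, APOBEC3F and APOBEC3G had no entry. Each window runs from 250 bases before to 50 bases after a transcript start, is written 5′ to 3′ on the gene's strand, and has its CG dinucleotides in capitals.
APOBEC3H, chr22:39096994-39097293, plus strand: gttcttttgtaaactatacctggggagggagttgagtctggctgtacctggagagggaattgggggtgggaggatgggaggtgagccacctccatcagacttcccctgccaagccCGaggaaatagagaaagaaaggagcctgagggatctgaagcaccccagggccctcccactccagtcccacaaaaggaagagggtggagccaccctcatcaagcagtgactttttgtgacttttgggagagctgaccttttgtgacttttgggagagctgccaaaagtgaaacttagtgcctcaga
SAMHD1, chr20:36951659-36951958, minus strand: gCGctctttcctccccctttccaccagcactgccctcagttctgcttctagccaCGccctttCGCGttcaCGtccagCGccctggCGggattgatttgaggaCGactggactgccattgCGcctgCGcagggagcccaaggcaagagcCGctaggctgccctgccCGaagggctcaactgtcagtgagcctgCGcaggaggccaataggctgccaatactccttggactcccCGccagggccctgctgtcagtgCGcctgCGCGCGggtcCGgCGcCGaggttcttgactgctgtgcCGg
ADAR, outer start, chr1:154627948-154628247, minus strand: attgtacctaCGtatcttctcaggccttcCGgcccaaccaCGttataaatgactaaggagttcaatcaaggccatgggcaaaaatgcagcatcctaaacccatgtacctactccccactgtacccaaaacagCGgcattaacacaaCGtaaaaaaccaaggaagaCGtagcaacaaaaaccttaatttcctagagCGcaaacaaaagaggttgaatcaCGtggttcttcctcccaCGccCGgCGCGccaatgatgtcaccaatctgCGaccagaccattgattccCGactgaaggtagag
ADAR, inner start, chr1:154608748-154609047, minus strand: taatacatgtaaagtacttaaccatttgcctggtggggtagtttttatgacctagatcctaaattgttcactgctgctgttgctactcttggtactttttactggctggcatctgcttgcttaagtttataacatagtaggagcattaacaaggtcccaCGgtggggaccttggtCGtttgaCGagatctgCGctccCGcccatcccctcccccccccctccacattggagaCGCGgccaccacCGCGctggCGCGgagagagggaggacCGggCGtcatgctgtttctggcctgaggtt
The APOBEC3H window holds 1 CG, and 3.96% of the 35097 promoter windows in the table hold fewer. SAMHD1 holds 22, the outer and inner ADAR windows 14 and 13, and TREX1 3, against a median of 14 over all windows. The files hold no methylation measurement, so the state of these sites is unknown. A search of both strands found 0 matches in the 6 windows to the core of the interferon-stimulated response element (ISRE), which 3.58% of all windows hold. The NF-kB forms GGGNNTTCC and GGAAANNCC (held by 6.57% and 6.26% of windows, and able to overlap) and the E2F forms TTTCGCGC and TTTGGCGC (0.516% and 0.652%) also had 0 matches. That says only that these letters are not in these windows.

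APOBEC3B (ENSG00000179750, GRCh38 chromosome 22, positions 38982347 to 38992804, plus strand) encodes a nuclear deaminase with a pair of deaminase domains. It had 197 and 278 counts in UHRF1 KO, against 457 and 478 in control. This was 9.48 and 11.2 CPM in UHRF1 KO and 25.6 and 25.7 CPM in control. Both UHRF1 KO libraries lay well below both controls, and the UHRF1 KO pair was spread more widely than the control pair. The log2 fold change was -1.31 (SE 0.10, edgeR adjusted p = 3.62e-13). Of all genes tested, 1.33% were called lower with a change at least as large.

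APOBEC3C (chromosome 22, 39014083 to 39020352, plus strand) encodes a single-domain family member and was the APOBEC3 gene with the most reads. Its level was 29.98 and 29.3 CPM in UHRF1 KO and 49.3 and 48.0 CPM in control, from 623 and 731 counts against 880 and 892. The replicates were close and the groups far apart. The log2 fold change was -0.71 (SE 0.068, edgeR adjusted p = 6.07e-11), and 5.57% of genes tested were called lower by as much or more.

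APOBEC3F (chromosome 22, 39040604 to 39053910, plus strand), whose product is packaged into virions and acts on retroviral DNA, was lower on far fewer reads. It stood at 3.61 and 3.37 CPM in UHRF1 KO and at 5.71 and 4.47 CPM in control, from 75 and 84 counts against 102 and 83. The groups did not overlap in CPM, which held for 80.0% of genes tested, and the 2 controls differed from each other more than the lower control differed from UHRF1 KO. The log2 fold change was -0.54 (SE 0.19, edgeR adjusted p = 0.0155), a call at 0.05 but not at the stricter threshold of 0.01 or with a minimum of 2-fold. The call was lost in 4 of 14 alternative fits: without control replicate 1 (log2 fold change -0.38, edgeR adjusted p = 0.182), without UHRF1 KO replicate 2 (adjusted p = 0.0734), with library size alone (0.0542) and with DESeq2 (0.118).

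**Figure D1:**
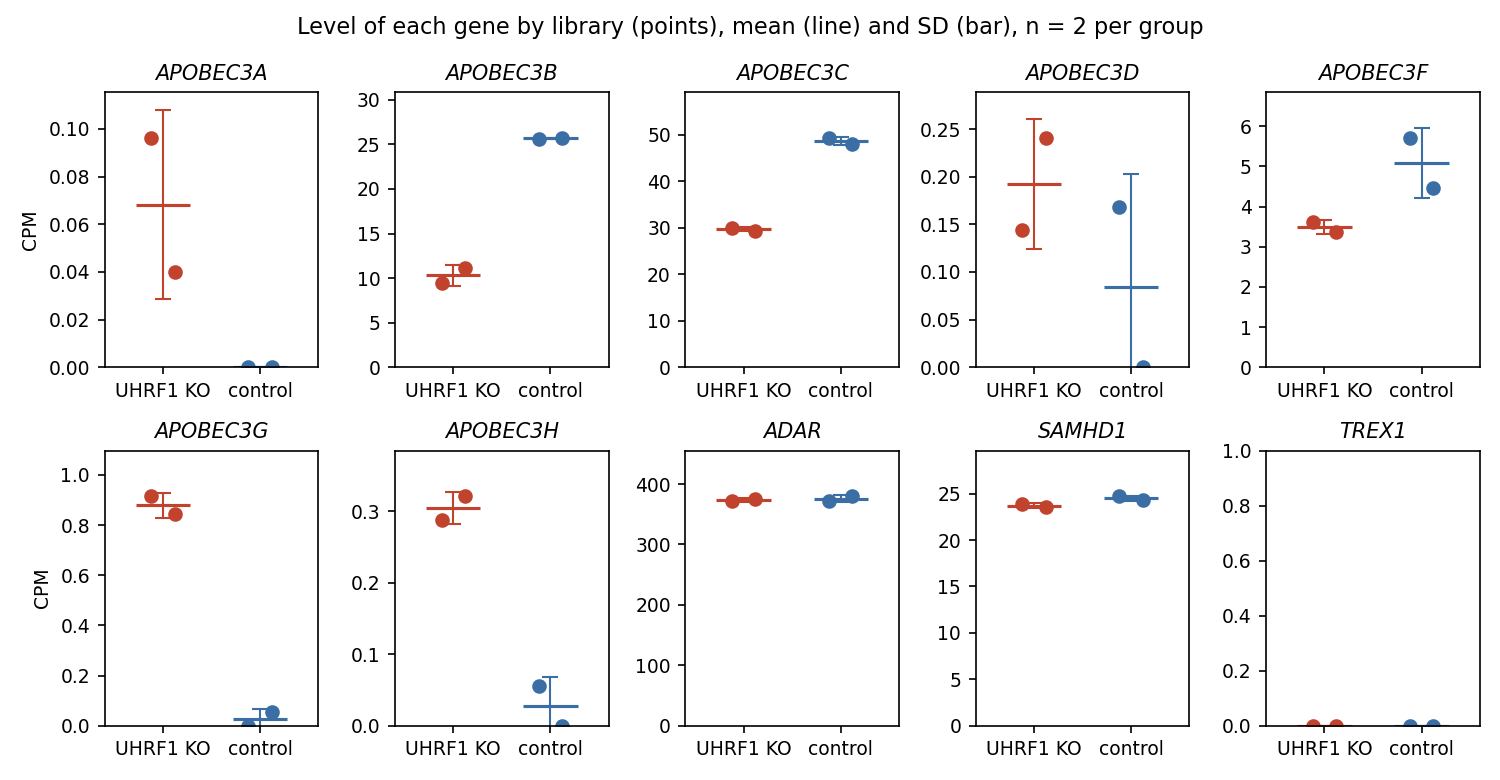
Level of each of the 10 genes in CPM after TMM scaling (linear axis from 0, a scale of its own per gene), with 2 UHRF1 KO libraries in red on the left and 2 control libraries in blue on the right of each panel; lines are means and bars SD. APOBEC3B, APOBEC3C and APOBEC3F sit lower in UHRF1 KO, ADAR and SAMHD1 are nearly level, APOBEC3G and APOBEC3H sit above controls near 0 on axes that end near 1 CPM or below, and TREX1 is at 0.

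APOBEC3G (chromosome 22, 39077005 to 39087743, plus strand), the family member best known for blocking HIV that lacks the Vif protein, was the 1 called rise. It had 19 and 21 counts in UHRF1 KO and 0 and 1 in control, or 0.914 and 0.843 CPM against 0 and 0.0538 CPM. The ratio of UHRF1 KO to control was 31.9, with a 95% exact interval for counting error from 5.40 to 1291 (edgeR adjusted p = 1.48e-05 for the fitted change). The groups were cleanly separated, yet with 1 control read the size of the change is almost undetermined. The fitted log2 fold change was 4.72, 3.87 without control replicate 1 and 7.22 without control replicate 2, and in the last case the remaining control is at 0, so that value is no bound. In UHRF1 KO its level per length remained far below that of APOBEC3C.

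APOBEC3H (chromosome 22, 39097224 to 39104067, plus strand), a single-domain antiviral deaminase, had 6 and 8 counts in UHRF1 KO and 1 and 0 in control. The ratio was 11.2, with a 95% exact counting interval from 1.70 to 472. Both UHRF1 KO libraries were above both controls, but the gene did not pass the filter and was not tested. With no filter on low counts edgeR gave an adjusted p of 0.0475.

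APOBEC3D (chromosome 22, 39021113 to 39033276, plus strand), another member able to restrict retroviruses, had 3 and 6 counts in UHRF1 KO and 3 and 0 in control. The groups overlapped in CPM, and the ratio of 2.39 had a counting interval from 0.597 to 13.7. APOBEC3A (chromosome 22, 38952741 to 38992778, plus strand), a potent single-domain mutator, had 2 and 1 counts in UHRF1 KO and 0 and 0 in control. The totals of both groups are at or under 3 counts, the limit that a count of 0 allows, so no fold is given. In a single library 3 counts correspond to 0.125 to 0.161 CPM before TMM scaling.

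White blood cells are known for high APOBEC3A, APOBEC3G and SAMHD1, so leukocyte markers are given beside these low counts. Of 15 such genes, 8 had 0 counts in both controls and 4 (CD3E, CD2, MS4A1 and FCGR3A) had 0 in all 4 libraries. The defining gene PTPRC, which encodes CD45, had 10 and 20 counts in UHRF1 KO and 0 and 0 in control. The summed level of the list was 13.6 and 15.9 CPM in UHRF1 KO and 7.56 and 7.27 CPM in control. In every library most of this sum came from CD14 and ITGAM. Of 4 markers tested, CD14 and ITGAM were called higher and CD4 and CD8A were not called, beside 32.0% of all genes tested called higher. The groups overlapped for ITGAM, at 4.43 and 6.14 CPM in UHRF1 KO and 4.54 and 3.01 CPM in control (edgeR adjusted p = 0.0341). Of 6 endothelial and stromal markers, 4 had too few counts to test. The sum over all 6 was also higher, 45.5 and 48.0 CPM in UHRF1 KO and 3.70 and 4.52 CPM in control, mostly PECAM1 and COL1A1. The part of these markers in the APOBEC3G and APOBEC3H counts was not tested. In bulk RNA a change in the number of cells of a type and a change in RNA per cell cannot be told apart. The epithelial keratin genes KRT8, KRT18 and KRT7 were abundant in all libraries, between 617 and 2749 CPM, but lower in UHRF1 KO, with log2 fold changes of -0.34, -0.43 and -0.38 (edgeR adjusted p of 2.37e-11 or less). The cell adhesion gene CDH1 also fell, by 0.39 on the log2 scale (edgeR adjusted p = 1.79e-07). EPCAM, the remaining 1 of 5 epithelial markers, rose to 9.96 ± 1.09 CPM in UHRF1 KO, against 2.21 ± 0.83 CPM in control (log2 fold change 2.16, edgeR adjusted p = 1.68e-11). All 5 were thus called, 4 lower and 1 higher, against 62.0% of all genes tested.

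The fitted changes above use CPM. To order different genes within a library, counts were also divided by the merged exon length and rescaled to a common total (TPM, the length-corrected counterpart of CPM). ADAR was the highest of the 10 in every library, at 132 and 134 TPM in UHRF1 KO and 116 and 121 TPM in control. APOBEC3C came next at 36.3 ± 0.46 TPM in UHRF1 KO and 52.8 ± 0.073 TPM in control, and then APOBEC3B at 18.8 ± 2.21 TPM in UHRF1 KO and 41.4 ± 0.86 TPM in control (SD, n = 2 each). SAMHD1 followed at 7.26 ± 0.056 TPM in UHRF1 KO and 6.65 ± 0.033 TPM in control, and APOBEC3F at 3.71 ± 0.17 TPM in UHRF1 KO and 4.80 ± 0.75 TPM in control. No neighbouring pair among these 5 overlapped within a group. The remaining 5 genes were below 1 TPM in every library, and in the controls the values of APOBEC3D, APOBEC3H, APOBEC3G and APOBEC3A rest on 0 to 3 counts each and cannot be ordered. TPM of a gene with level CPM, such as ADAR, was higher in UHRF1 KO, so TPM is used here for the order of genes and their shares within a library.

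Added over the 7 APOBEC3 genes, the level per length was 17.2 and 17.9 CPM per kilobase in UHRF1 KO and 32.9 and 32.0 CPM per kilobase in control. The ratio of UHRF1 KO to control was 0.541. In TPM, the scale on which ADAR was higher in UHRF1 KO at level CPM, it was 0.610. The makeup differed as well: APOBEC3B gave 28.99% and 32.9% of the summed TPM in UHRF1 KO and 41.1% and 42.4% in control. APOBEC3C gave 61.7% and 58.3% in UHRF1 KO and 53.2% and 53.3% in control. APOBEC3G made up 0.921 ± 0.076% of the sum in UHRF1 KO and 0.015 ± 0.022% in control, and APOBEC3H 1.39 ± 0.070% in UHRF1 KO and 0.068 ± 0.096% in control (SD, n = 2 each).

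**Figure D2:**
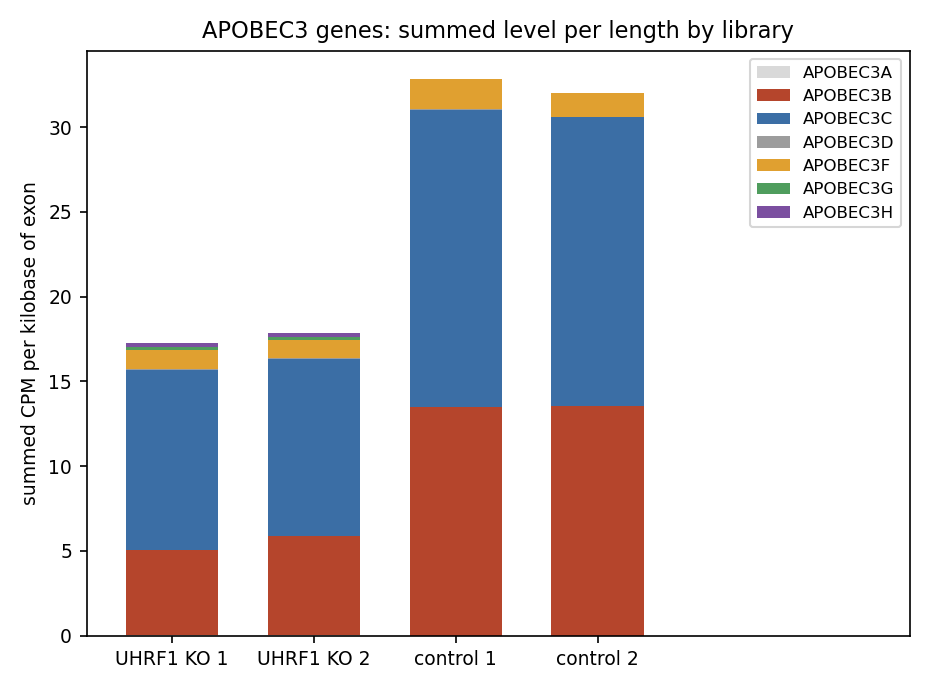
Summed level of the 7 APOBEC3 genes in CPM per kilobase of exon (TMM scaling, axis from 0) in 2 UHRF1 KO and 2 control libraries, with 1 colour per gene. The UHRF1 KO bars reach 17.2 and 17.9 and the control bars 32.9 and 32.0, and the APOBEC3B segment is smaller than in control by a larger factor than the APOBEC3C segment.

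ADAR (ENSG00000160710, chromosome 1, 154582057 to 154628013, minus strand) stood at 372 and 376 CPM in UHRF1 KO and at 372 and 380 CPM in control, from 7725 and 9358 counts against 6640 and 7051. The groups overlapped. The log2 fold change was -0.01 with a 95% interval from -0.08 to 0.06 (edgeR adjusted p = 0.880). The call depended on scaling, since ADAR was called higher by 0.10 with library size alone (edgeR adjusted p = 0.00977) and by 0.10 with GC content and length trends removed (0.00421). It was called lower, at -0.20, with libraries also recentred (2.95e-07), and adjusted p ran from 0.299 to 0.941 in the other 11 alternatives. The gene makes a constitutive and an interferon-inducible longer protein from separate starts, and counts per gene do not separate them.

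SAMHD1 (ENSG00000101347, chromosome 20, 36889773 to 36951901, minus strand) stood at 23.9 and 23.5 CPM in UHRF1 KO and at 24.7 and 24.3 CPM in control, from 496 and 586 counts against 441 and 451. The UHRF1 KO values were the lower pair by a narrow gap. The log2 fold change was -0.05 with an interval from -0.21 to 0.12 (edgeR adjusted p = 0.642), and it was not called in any of 14 alternatives, where it ran from -0.15 to 0.15. Part of its model, 10.3% of exon bases, overlaps exons of TLDC2 on the other strand, and TLDC2 had 9 and 12 counts in UHRF1 KO and 0 and 2 in control.

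TREX1 (ENSG00000213689, chromosome 3, 48465811 to 48467645, plus strand) had 0 counts in all 4 libraries. All 1515 of its exon bases lie in exons of ATRIP, the partner of the ATR checkpoint kinase, on the same strand. Among protein-coding genes whose exon bases all lie inside exons of another gene on their strand, 225 of 282 (79.8%) had 0 counts in all libraries, against 1703 of 11097 (15.3%) with no such overlap. The labels do not say how reads in shared exons were counted, so the 0 is not read as absent expression. ATRIP fell to 8.10 ± 0.36 CPM in UHRF1 KO, against 12.2 ± 1.27 CPM in control (log2 fold change -0.58, SE 0.13, edgeR adjusted p = 1.83e-04), and its counts cannot be divided between the 2 genes.

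**Figure D3:**
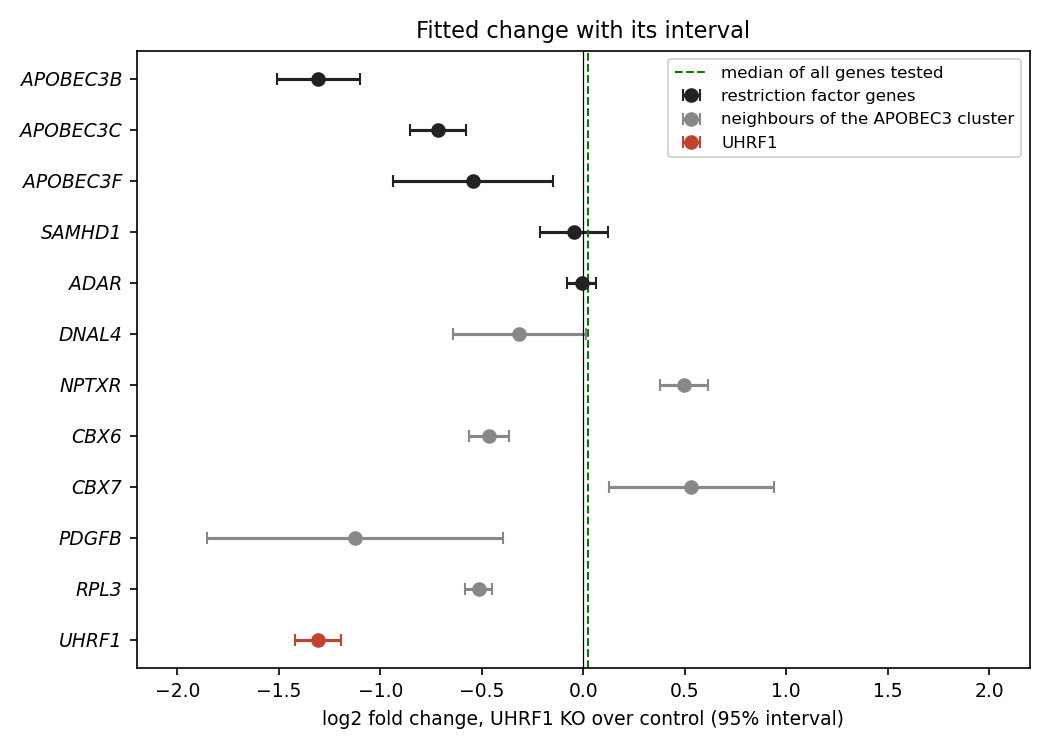
Log2 fold change of UHRF1 KO over control with its 95% interval for 5 of the 6 tested restriction factor genes (black; APOBEC3G, with 1 control count, is left out), the 6 nearest coding genes around the APOBEC3 cluster (grey) and UHRF1 (red); the dashed line is the median of all genes tested. The intervals of APOBEC3B, APOBEC3C and APOBEC3F lie below 0, and those of SAMHD1 and ADAR span it.

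The close kinship of the APOBEC3 genes bears on how reads could be divided among them. APOBEC3A and APOBEC3B share 348 exon bases in the annotation, 18.4% of the APOBEC3B exons, because the APOBEC3A model extends over its neighbour. APOBEC3D has 83.2% of its exon bases inside a readthrough model, AL022318.4, which had 0 counts in all libraries. Of all distinct 50-base stretches in APOBEC3B transcripts, 37.8% also occur in transcripts of another gene, as do 21.0% of those of APOBEC3F and 7.31% of those of APOBEC3G. For APOBEC3C the share is 1.14% and for APOBEC3H 0%. The levels of APOBEC3A, APOBEC3B, APOBEC3D and APOBEC3F are therefore uncertain, while those of APOBEC3C and APOBEC3H rest almost wholly on sequence of their own.

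**Figure D4:**
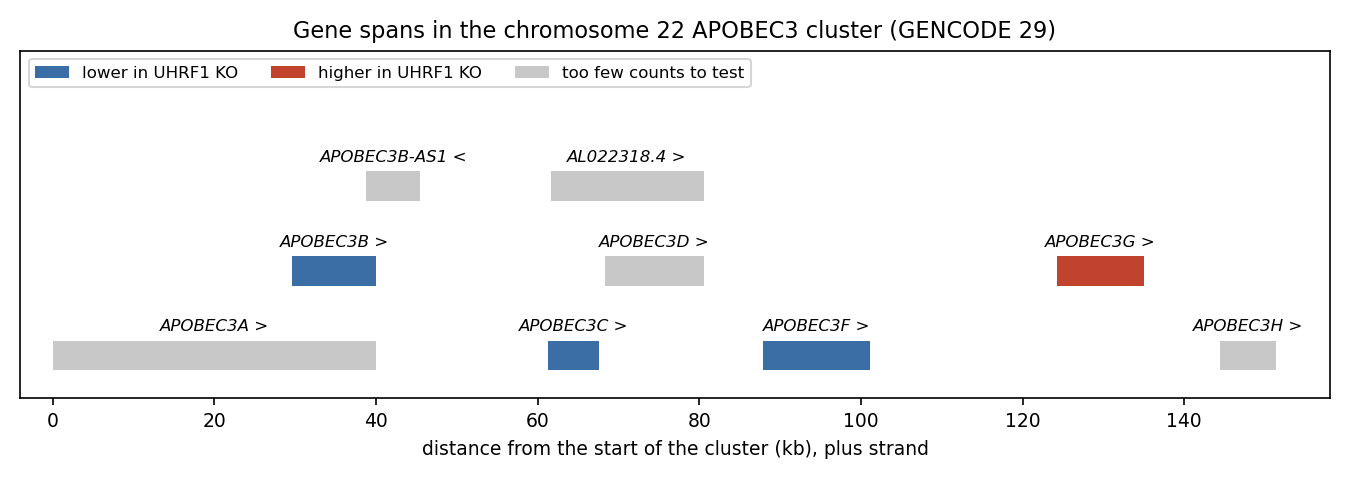
Spans of the genes of the APOBEC3 cluster on chromosome 22 in GENCODE 29, in kb from the first base of the cluster along the plus strand, with genes drawn on 3 levels so that overlapping spans can be seen and arrowheads giving strand. APOBEC3B, APOBEC3C and APOBEC3F (blue) were lower in UHRF1 KO and APOBEC3G (red) was higher; grey genes had too few counts to test, and the APOBEC3A span covers nearly all of APOBEC3B.

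The cluster covers 151.3 kb, and the genes on its flanks moved in both directions. Before it, DNAL4 did not pass the test (log2 fold change -0.31, edgeR adjusted p = 0.0884), the neuronal pentraxin receptor gene NPTXR rose by 0.50 (4.86e-09) and the Polycomb chromobox gene CBX6 fell by 0.46 (6.82e-10). After it, CBX7, a related chromobox gene, rose by 0.53 (0.0205), the growth factor gene PDGFB fell by 1.13 (0.00701) and the ribosomal protein gene RPL3 fell by 0.52 (2.13e-15). Of these 6 flanking genes 3 were called lower and 2 higher, while of all genes tested 30.1% were lower and 32.0% higher. Within the cluster the only higher call, APOBEC3G, rests on 1 control count.

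Other deaminase genes mostly had too few counts to test. Of 11 listed relatives and cofactors 4 passed the filter and 1 was called, against 62.0% of all genes. ADARB1, the other catalytically active ADAR enzyme, was at 12.2 and 14.5 CPM in UHRF1 KO and at 5.10 and 6.78 CPM in control. Both UHRF1 KO libraries were above both controls (log2 fold change 1.17, SE 0.14, edgeR adjusted p = 1.07e-08). Even so ADARB1 remained far below ADAR per length, at 4.19 and 4.98 TPM in UHRF1 KO and 1.53 and 2.09 TPM in control. APOBEC1, which edits apolipoprotein B transcripts, had 0 counts in all 4 libraries.

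Genes that remove uracil left by APOBEC3 enzymes, and repair the gap, included more lower than higher calls. Of 12 tested, 6 fell and 1 rose, with a median log2 fold change of -0.18, while of all genes tested 30.1% were lower and 32.0% higher, with a median of 0.02. The 7 called of 12 are close to the 62.0% called over all genes. The abasic endonuclease APEX1 fell to 163 ± 0.63 CPM in UHRF1 KO, against 250.9 ± 3.45 CPM in control (log2 fold change -0.62, edgeR adjusted p = 2.84e-15). The strand break sensor PARP1 fell by 0.35, the ligase LIG3 by 0.45 and the main uracil glycosylase UNG by 0.25 on the log2 scale. A second uracil glycosylase gene, SMUG1, was the 1 that rose, by 0.28 (edgeR adjusted p = 0.00446).

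SAMHD1 acts on the deoxynucleotide pool. Of 16 genes that make or break down parts of this pool, 10 fell and 2 rose, with a median of -0.37. Over all genes tested 30.1% fell and 32.0% rose. RRM1, the large subunit of ribonucleotide reductase, was at 117 ± 4.83 CPM in UHRF1 KO and 195 ± 1.38 CPM in control (log2 fold change -0.73, edgeR adjusted p = 3.90e-16). The thymidylate kinase DTYMK fell by 0.75 and the pyrophosphatase DCTPP1 by 0.62. Against the majority, the interferon-inducible mitochondrial kinase CMPK2 rose by 2.14, to 14.98 ± 0.58 CPM in UHRF1 KO, against 3.41 ± 0.72 CPM in control (edgeR adjusted p = 3.34e-14). Phosphorylation by cyclin A with CDK1 or CDK2 is known to restrain SAMHD1 against retroviruses. All 5 listed regulators were called, 3 lower and 2 higher, against 62.0% of all genes tested, while SAMHD1 did not pass the test. CCNA2 fell by 0.92 and CDK1 by 0.74, the phosphatase subunit PPP2R2A fell by 0.26, the inhibitor CDKN1A rose by 1.49, and CDK2 rose by 0.20, each called by edgeR (adjusted p from 4.11e-26 to 0.00872). The files hold no measure of phosphorylation.

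Among other nucleases that clear nucleic acid 4 were higher and 4 lower of 12 tested, with a median of -0.10, near the shares of all genes tested (32.0% higher and 30.1% lower). ISG20, an interferon-induced RNA exonuclease, was at 62.2 ± 1.89 CPM in UHRF1 KO and 27.2 ± 0.10 CPM in control (log2 fold change 1.197, edgeR adjusted p = 7.14e-17), and the lysosomal nuclease DNASE2 rose by 0.50. RNASEH1, which cuts RNA in RNA-DNA hybrids, fell by 0.34, and the exonuclease EXO1 by 0.41.

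Sensors of nucleic acid and other restriction factors included more higher than lower calls. Of 10 sensor genes, 8 were higher and 1 lower, with a median of 1.03, against 32.0% higher and 30.1% lower over all genes tested. OAS2, which makes the messenger that activates RNase L, was at 43.8 and 44.6 CPM in UHRF1 KO and 7.002 and 6.35 CPM in control, OAS1 and OAS3 rose by 1.24 and 0.62, and the RNA helicase sensor gene DDX58 rose by 1.10. EIF2AK2, which encodes the double-stranded RNA kinase PKR, fell by 0.58. Of 18 other restriction factor genes, 10 rose and 3 fell, with a median of 0.28, against the same shares over all genes. The membrane factor IFITM3 rose by 2.72, the viral entry inhibitor SERINC5 by 1.00, the ISG15 ligase HERC5 by 0.97, while SLFN11 fell by 0.63 (edgeR adjusted p = 4.88e-07). MX2, which blocks nuclear entry of HIV, had 127 and 150 counts in UHRF1 KO and 2 and 2 in control. In control, IFITM1 had 4 and 6 counts, and the sensor genes ZBP1 and TMEM173 had 0 and 0, and 8 and 14. MX2, IFITM1, ZBP1 and TMEM173 passed the filter only through the UHRF1 KO libraries, so a lower call was not open to them. Each is among the higher calls above.

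For ADAR, APOBEC3C and SAMHD1, the members with the highest mean CPM, the 3 coding genes with the closest pattern were looked up among 9519 genes of at least 10 CPM. Likeness was the root mean square difference in log2 CPM over the 4 libraries after centring each gene. ADAR was nearest to ZDHHC9, TOR1AIP1 and TOR1AIP2 (differences of 0.0056 to 0.0065). APOBEC3C was nearest to ARL6IP1, ERH and C4orf46 (0.0040 to 0.0068), and SAMHD1 to CLTB, PTP4A2 and PLP2 (0.0042 to 0.0062). Such closeness was common over only 4 libraries: 919, 223 and 965 genes lay within 0.05 of ADAR, APOBEC3C and SAMHD1.

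**Figure D5:**
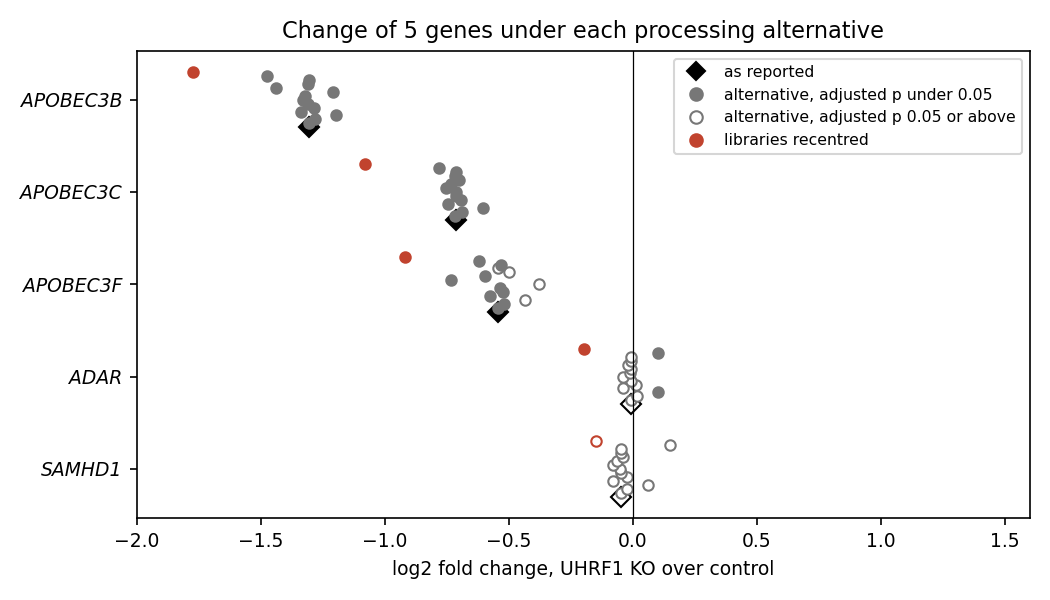
Log2 fold change of UHRF1 KO over control for 5 genes as reported (diamonds) and under 14 processing alternatives (circles); filled marks have an adjusted p under 0.05, open marks do not, and red marks are the fit with libraries recentred. APOBEC3B and APOBEC3C are filled and below 0 throughout, APOBEC3F is open in 4 fits, and ADAR falls on either side of 0.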

How the data were processed

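RNA-seq was analysed in 4 A549 libraries, 2 UHRF1 KO and 2 control. Per the labels' protocols, Trizol RNA was turned into libraries by a SMARTER mRNA-Seq kit. The values, as deposited, are raw integer read counts for each Ensembl gene. FastQC 0.10.1 and GRCh38 appear in the submitters' processing notes. The aligner, counter, annotation, strand setting, read length and handling of multiply matching reads were all not given in the sources used here. All 58735 identifiers matched GENCODE 29. Columns were matched by name; both control samples carry the same short name, so the control numbers come from the sample titles. Totals were 20020366 and 23977168 counts in UHRF1 KO and 18604598 and 19222886 in control. The exact intervals of count ratios cover counting error only, while the intervals of fitted changes also include the spread between libraries. The labels mention no molecular identifiers, so reads could not be checked for being copies of the same molecule. Replicates differed by more than counting noise (chi-square per degree of freedom 1.85 in UHRF1 KO and 2.65 in control).

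Counts were fitted with edgeR 4.0.16 in R 4.3.3 (filterByExpr, 17030 genes, TMM, robust quasi-likelihood, two-sided, Benjamini-Hochberg over all genes, threshold 0.05). The fit was first tried on simulated counts in which only 200 genes changed and all genes had the same relative spread. That trial does not cover data in which 62.0% of genes are called. SE was obtained as |log2 fold change| divided by √F, and the 95% interval uses the moderated degrees of freedom. With 2 libraries per group an exact permutation test cannot give a p below 0.333, so none is used. Replicate numbers did not pair the samples. Alternatives were DESeq2 1.42.0 size factors and test, upper-quartile factors, library size alone, no filter, at least 1 CPM in 2 libraries, the replicate block, each library left out, limma-voom (limma 3.58.1), stricter thresholds, and GC content and length trends removed with and without recentring of libraries.

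The members, lists, motifs and tests were chosen with earlier results of these data known. Genes named are the members, UHRF1 and overlapping genes. From each list, up to 4 called genes with the smallest adjusted p plus 1 going the other way are also named. APOBEC1, CDK2, TLDC2, PTPRC, CD4, CD8A, CDH1, IFITM1, ZBP1, TMEM173 and the markers at 0 were named after their values were seen. The planned comparison of protein sequences was not made, as no protein table was used.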

Additional observations from a re-analysis of the deposited data

How the results depend on the processing

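The lower calls of APOBEC3B and APOBEC3C and the lack of a call for SAMHD1 held in all 14 alternative fits. APOBEC3B ran from -1.77 to -1.20, APOBEC3C from -1.08 to -0.60 and APOBEC3F from -0.92 to -0.38 on the log2 scale. APOBEC3G, which enters the fit only through the UHRF1 KO libraries, where it is high, ran from 3.87 to 7.22 in 13 fits, both ends set by leaving out 1 control; its repeated call rests on the same few counts and is no sign of stability. The number of the 10 genes called higher was 2 with library size alone, with GC content and length trends removed (each adding ADAR, at 0.10) and with no filter (adding APOBEC3H), and 0 with at least 1 CPM in 2 libraries, where APOBEC3G is not tested. With a minimum of 2-fold, 1 of the 10 was lower, and 2616 genes in all were higher and 432 lower. With trends removed and libraries recentred, 3544 genes were higher and 8221 lower, 30.1% higher among calls against 51.5% as reported, and the median gene moved by -0.26. Library size alone moved it by 0.11, with 63.6% higher. With no filter the median was higher by 0.20, but over a larger set of genes, so it is not a shift of the same genes. The ratio of summed APOBEC3 levels was 0.610 in TPM, with 0.599 to 0.622 when each library was left out, and 0.541 as CPM per kilobase, an alternative added after seeing the data. Leaving out each library gave 4626 to 5137 genes higher and 4388 to 5037 lower. With the replicate block, 5280 genes were higher and 4986 lower and no member's call changed; same-numbered libraries did not deviate together (correlation -0.014 over genes). The cause of these shifts was not tested. Depth limits APOBEC3A, APOBEC3D, APOBEC3G and APOBEC3H.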
